A study of Homo sapiens with 4 samples.

Results

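The step from CD31+CD34+ hemogenic endothelial progenitors (HEPs) to CD43+ hematopoietic progenitor cells (HPCs) was described from 1 library of each population, as the difference between the CD43+ and the CD31+CD34+ level of each gene. A gene belonged to the comparison when it had at least 1 FPKM (fragments per kilobase of transcript per 1000000 mapped fragments) in either of these 2 libraries. This held for 15177 genes, 12747 of them protein-coding, of the 17137 genes that reached 1 FPKM in any of the 4 libraries of the series. The other 2 libraries, undifferentiated BC1 cells and APLNR+ mesoderm cells of day 2, are given only where they place a level in context.

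All cells derived from the human line BC1 of induced pluripotent stem cells, so the populations share 1 genetic background. Differentiation was started with activin A and BMP4 for 2 days and went on with VEGF and bFGF, without any other agent named, up to day 8. CD31+CD34+ cells were collected at day 5 and CD43+ cells at day 8, so both populations come from the VEGF and bFGF phase, and population and day of culture cannot be told apart. With 1 library per population no difference has a replicate check, no test was run, and the intervals given with fold changes are 95% intervals that cover the counting of fragments only. The depth read from the values was about 23600000 mapped fragments for CD31+CD34+ and 21500000 for CD43+, so that 1 FPKM of a transcript of 2000 bases stood for 40.6 and 37.0 fragments.

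Hemogenic endothelium is endothelium that lines vessels and can still turn into blood. In the endothelial-to-hematopoietic transition (EHT) single cells leave the endothelial sheet, give up their junctions and matrix contacts, and take on the surface receptors, cytoskeleton and transcription factors of blood cells. The first blood cells of the embryo are largely primitive red cells and megakaryocytes, the cells that release platelets, and both lineages use the transcription factor GATA1.

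A gene is said to have risen or fallen when its log2(FPKM + 1) was higher or lower by at least 1 in CD43+ cells, which is at least a doubling or halving of the level. Rises and falls are ranked on this scale, which gives low genes less weight than their folds do. Of the 15177 genes 1307 rose (8.61%) and 2321 fell (15.3%), and the median difference was -0.09. Falls therefore outnumbered rises, while the genes with at least 1 FPKM numbered 14128 in CD31+CD34+ and 13554 in CD43+. There were 1623 genes that reached 1 FPKM only in CD31+CD34+ cells and 1049 that reached it only in CD43+ cells. The excess of falls lay mainly with protein-coding genes, of which 945 rose and 1994 fell. Among 467 lincRNAs 67 rose and 87 fell, among 681 antisense genes 100 rose and 80 fell, and among 782 pseudogenes 109 rose and 101 fell. Whether strand was used in counting is not given in the sources used here, so an antisense gene and its partner cannot be separated.

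The markers of the step were read first. SPN, the gene of CD43, went from 11.7 to 92.4 FPKM. GATA1 went from 13.4 to 189.8 FPKM and HBE1, embryonic epsilon globin, from 10.6 to 5271 FPKM. SOX7, an endothelial transcription factor, went from 84.5 to 0.917 FPKM. The rise of SPN follows from the sort, while the sample labels do not name GATA1, HBE1 or SOX7. PECAM1, the gene of CD31, was still at 126 FPKM in CD43+ cells against 93.1 FPKM before, and CD34 was at 42.6 FPKM against 102 FPKM. PTPRC, the gene of CD45, had about 1 fragment in CD43+ and none in CD31+CD34+, below the 3 fragments taken as the floor.

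Markers of other cell types were read as whole lists. All 13 endothelial markers were lower in CD43+ cells, 12 of them by at least 1, and their summed level went from 3789 to 584 FPKM, with none at 0. Of 12 smooth muscle and stromal markers 6 fell and none rose, and the sum went from 549 to 89.2 FPKM. Of 12 macrophage and neutrophil markers 3 rose, namely AIF1, CSF1R and CD68, and the sum went from 27.3 to 168 FPKM, while the defining markers CD14, MPO, ELANE and ITGAM did not reach 1 FPKM in either library. Of 14 lymphoid markers 1 fell, CD79B, from 30.3 to 7.79 FPKM. The sum was 35.5 FPKM before, most of it CD79B, and 17.0 FPKM after. Of 12 pluripotency markers 2 fell (POU5F1, from 1.87 to 0.235 FPKM, and L1TD1), and LIN28A, DNMT3B and DPPA4 were between 22.5 and 92.9 FPKM in CD43+ cells. Fewer cells of a type and less RNA per cell cannot be told apart in bulk samples, and the part of residual endothelial cells in the levels of endothelial genes was not tested. The labels name no exclusion of CD43+ cells from the CD31+CD34+ sort. The part of early blood cells in the levels of blood genes in that library was likewise not tested.

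The gene lists used below are groups by function and, with the marker lists above, number 43 with 1047 distinct genes. Each list is described by the number of its members that rose and fell, and by the median difference over all its members in the table. The counts are to be read against 8.61% and 15.3%, and the median against -0.09. These values were taken only over the 15177 genes of the comparison, whereas a list can also hold members below 1 FPKM in both libraries. Such members cannot differ by 1, so they lower the shares of a list and draw its median toward no difference.

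**Figure D1:**
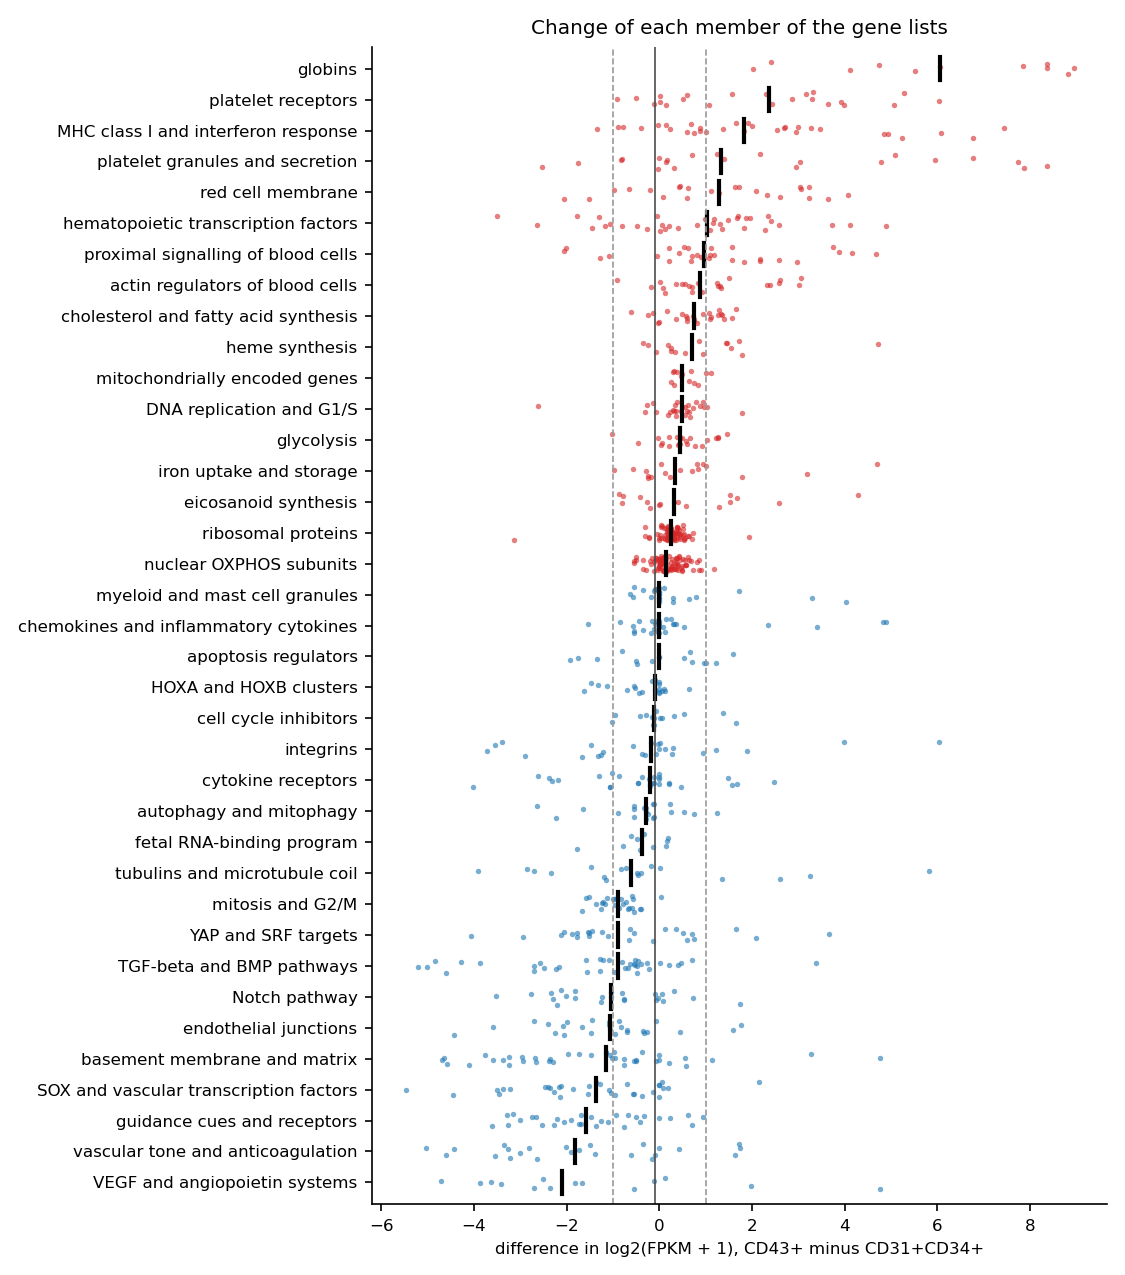
Difference in log2(FPKM + 1) between CD43+ and CD31+CD34+ cells (x axis) for every member of each functional gene list (rows, sorted by median). Points are genes, red where the median of the list is above 0 and blue otherwise, and black bars are medians. Dashed lines mark the threshold of 1 and the solid line the median of all genes with at least 1 FPKM in either library, at -0.09. Globins have the highest median (6.05) and the VEGF and angiopoietin systems the lowest (-2.09), and ribosomal protein genes lie close together.

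The platelet genes rose widely. Of 22 receptor and adhesion genes of platelets 14 rose and none fell, with a median difference of 2.37, and of 22 genes of platelet granules and secretion 12 rose and 2 fell, with a median of 1.33. 19 of the receptor genes and 20 of the granule genes had passed 1 FPKM. The sequences before the start sites of 3 granule genes with the highest rises are shown here, because their products are among the most abundant of the platelet lineage and the motifs of GATA and ETS factors are the ones classically named for megakaryocyte promoters. They are the 250 bases before the RefSeq start on GRCh38.p14, read 5′ to 3′ on the strand of the gene. Capitals mark AGATAA, the motif of GATA factors, or GGAAGT, the motif of ETS factors, on either strand, and a match on the other strand appears as the reverse complement of the motif.

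PLEK (chr2:68365032-68365281, plus strand): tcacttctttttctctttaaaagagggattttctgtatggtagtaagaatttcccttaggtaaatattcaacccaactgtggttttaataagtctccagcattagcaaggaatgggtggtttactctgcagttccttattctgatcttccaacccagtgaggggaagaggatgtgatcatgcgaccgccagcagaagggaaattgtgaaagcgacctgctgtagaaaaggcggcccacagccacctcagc
THBS1 (chr15:39580829-39581078, plus strand): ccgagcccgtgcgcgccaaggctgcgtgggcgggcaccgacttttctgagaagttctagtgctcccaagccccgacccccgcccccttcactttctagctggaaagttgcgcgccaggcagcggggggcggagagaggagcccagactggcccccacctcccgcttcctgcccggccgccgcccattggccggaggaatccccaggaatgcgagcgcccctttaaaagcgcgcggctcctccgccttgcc
PPBP (chr4:73988191-73988440, minus strand): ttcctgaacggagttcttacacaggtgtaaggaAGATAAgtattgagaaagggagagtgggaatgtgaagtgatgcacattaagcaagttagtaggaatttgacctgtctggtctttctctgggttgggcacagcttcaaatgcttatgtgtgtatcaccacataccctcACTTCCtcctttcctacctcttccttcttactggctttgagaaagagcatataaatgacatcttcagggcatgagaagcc

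Only the PPBP window among these held the motifs, with AGATAA from 217 to 212 bases and the ETS motif, on the other strand, from 80 to 75 bases before the start. Of the 26 genes of the 2 platelet lists together that rose 19 had an entry among the promoters. Of these, 2 (10.5%) held AGATAA, against 11.1% of all 27305 genes with an entry, and 8 (42.1%) held GGAAGT, against 23.0% of all. These are matches of letters, and a window without a match says only that these letters are not in it.

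Pleckstrin, the product of PLEK, is a protein kinase C substrate of platelets. PLEK went from 0.294 to 429.7 FPKM, a 1460-fold difference with an interval from 923 to 2461. THBS1, the gene of thrombospondin 1, an adhesive protein of alpha granules, went from 1.47 to 579 FPKM, 393-fold (334 to 471). PPBP, which gives the platelet chemokine CXCL7, went from 0.194 to 256 FPKM, which is 1317-fold with a wide interval of 363 to 10842 since only 2 fragments lay behind the lower level. PF4, platelet factor 4, had 14.4 FPKM before and 1674 FPKM after the step (116-fold, 96.5 to 142). PF4 was thus already detectable in the CD31+CD34+ library, while PLEK and PPBP were near the floor there. Which cells of that sort held PF4 was not tested. PF4V1, its close copy, went from 0 to 33.0 FPKM, and reads of the pair may be split between them. SRGN, the granule proteoglycan serglycin, RAB27B, a small GTPase of granule release, and MMRN1, the gene of multimerin, were other granule genes that rose, to 85.8, 45.9 and 102 FPKM.

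The fibrinogen receptor of platelets is the integrin pair of ITGA2B and ITGB3. ITGA2B went from 60.9 to 982 FPKM (16.1-fold, 15.6 to 16.7), and ITGB3 went from 6.68 to 501 FPKM (75-fold, 68.0 to 83.0). The von Willebrand factor receptor is built from the products of GP1BA, GP1BB, GP5 and GP9. GP1BB went from 1.34 to 89.3 FPKM (66.7-fold, 49.1 to 94.1) and GP9 from 0.625 to 53.2 FPKM (85.2-fold, 44.5 to 187). GP1BA rose from 11.2 to 108 FPKM and GP5 from 0.0781 to 15.3 FPKM, so that all 4 subunit genes rose. SELP, P-selectin, and P2RX1, an ATP-gated channel, also rose, whereas the thrombin receptor genes F2R (136 and 193 FPKM) and F2RL2 (221 and 156 FPKM) were already high in CD31+CD34+ cells and changed by less than 1. The collagen receptor gene GP6 was at 0.427 and 1.17 FPKM, and P2RY12, an ADP receptor, CD36 and ITGA2 were under 1 FPKM in both libraries.

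The 2 granule genes that fell were VWF, the gene of von Willebrand factor, which endothelium also makes, from 13.7 to 1.54 FPKM, and SERPINE2, a protease inhibitor, from 122 to 35.3 FPKM. CD9, a tetraspanin of platelets and of stem cells, was at 39.8 and 20.7 FPKM.

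Platelets hold a coil of microtubules that uses its own beta tubulin, the product of TUBB1. TUBB1 went from 0.238 to 68.9 FPKM (290-fold, 184 to 491). TUBA4A, an alpha tubulin of platelets, went from 10.2 to 107 FPKM (10.4-fold, 8.42 to 13), and TUBA8 and TUBB4A rose as well. Other tubulins moved the opposite way: TUBB6 fell from 450.5 to 68.0 FPKM (6.62-fold, 6.05 to 7.25), TUBB2B from 120.2 to 6.99 FPKM and TUBB3 from 36.0 to 6.28 FPKM. Of the 18 genes of the list 4 rose and 7 fell. The summed level of 8 beta tubulins was 1061 FPKM before and 391 FPKM after the step. TUBB1 made up 0.0224% of that sum before and 17.6% after, and TUBB6 42.5% before and 17.4% after.

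Thromboxane, the lipid signal of platelets, is made by the products of PTGS1 and TBXAS1. PTGS1 rose from 23.2 to 68.9 FPKM and TBXAS1 from 9.52 to 32.5 FPKM. ALOX12, the 12-lipoxygenase of platelets, rose from 1.42 to 46.4 FPKM (32.7-fold, 23.4 to 45.9). In the eicosanoid list 6 of 17 genes rose and none fell, with a median difference of 0.32, and 6 were below 1 FPKM in both libraries, among them the prostacyclin synthase gene PTGIS.

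All members of the globin list rose, 11 of 11, with a median difference of 6.05. The 10 globin chains together took 0.00413% of the total FPKM of the CD31+CD34+ library and 1.80% of that of the CD43+ library. The highest in CD43+ cells were HBE1 at 5271 FPKM and HBG2, a fetal gamma globin, at 5256 FPKM. HBG2 had been at 9.69 FPKM, a 542-fold difference (435 to 692). HBZ, embryonic zeta globin, went from 0.445 to 474 FPKM (1066-fold, 455 to 3273), and HBA2, an alpha globin, from 0.259 to 417 FPKM with about 1 fragment behind the lower value (1607-fold, 411 to 90613). HBA1 had no fragment in CD31+CD34+ and 65.3 FPKM in CD43+, at least 134-fold higher when set against 3 fragments. HBB, the adult beta chain, reached 6.36 FPKM from 0.381 FPKM (16.7-fold, 6.04 to 93.5). Among the other chains of the beta locus HBD, delta globin, was at 249.7 FPKM and HBG1, the second gamma globin, at 45.0 FPKM in CD43+ cells, so that HBB was the lowest of these 5. HBA1 and HBA2, and HBG1 and HBG2, are near-identical pairs, and the split of reads within each pair is uncertain. HBE1 and HBG2 are annotated with readthrough transcripts that overlap each other on chromosome 11 (5268345 to 5505652 and 5253190 to 5505605, minus strand).

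Heme, the oxygen-binding group of hemoglobin, is made in a chain of enzymes that begins with aminolevulinate synthase. ALAS2, the red cell form of this enzyme, rose from 3.85 to 126 FPKM (32.8-fold, 25.4 to 42.8), while ALAS1, the form of other cells, was at 23.1 and 19.3 FPKM. The later enzyme genes UROS (16.4 to 59.1 FPKM), UROD (73.4 to 201 FPKM), CPOX (57.8 to 171 FPKM) and FECH (16.6 to 47.6 FPKM) and the mitochondrial iron importer gene SLC25A37 (36.5 to 124 FPKM) rose too. Thus 6 of 16 heme genes rose and none fell, with a median difference of 0.71. In between, ALAD (21.0 and 25.4 FPKM) and PPOX (20.4 and 30.6 FPKM) changed by less than 1.

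Of 18 genes of iron handling 3 rose and none fell, with a median of 0.34. TFRC, the transferrin receptor by which iron enters, rose from 4.61 to 50.4 FPKM (10.9-fold, 9.97 to 12), and SLC40A1, ferroportin, by which iron leaves, rose from 2.54 to 91.5 FPKM (36.0-fold, 22.5 to 59.3). TFR2, the second transferrin receptor, was the other gene that rose. The ferritin genes FTH1 (937 and 1804 FPKM) and FTL (1370 and 1406 FPKM) were high in both libraries.

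The red cell membrane list had 13 rises and 2 falls among 23 genes, with a median difference of 1.29. The glycophorin genes GYPB (17.0 to 304 FPKM) and GYPE (12.7 to 127 FPKM) rose, and since the genes of this family are close copies of one another the share of each is uncertain. DMTN, which bundles actin at the red cell membrane, rose from 2.72 to 45.2 FPKM, and CD47, the signal that spares cells from phagocytosis, from 21.8 to 185 FPKM. SLC4A1, band 3, the main membrane protein of the mature red cell, was only at 1.5 FPKM in CD43+ cells, and EPB42 was below 1 FPKM. GYPC (62.7 and 66.4 FPKM) and EPB41, protein 4.1 (71.4 and 95.9 FPKM), were already present in CD31+CD34+ cells. BCAM, a laminin receptor, fell from 56.6 to 12.9 FPKM, and ADD2 also fell.

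**Figure D2:**
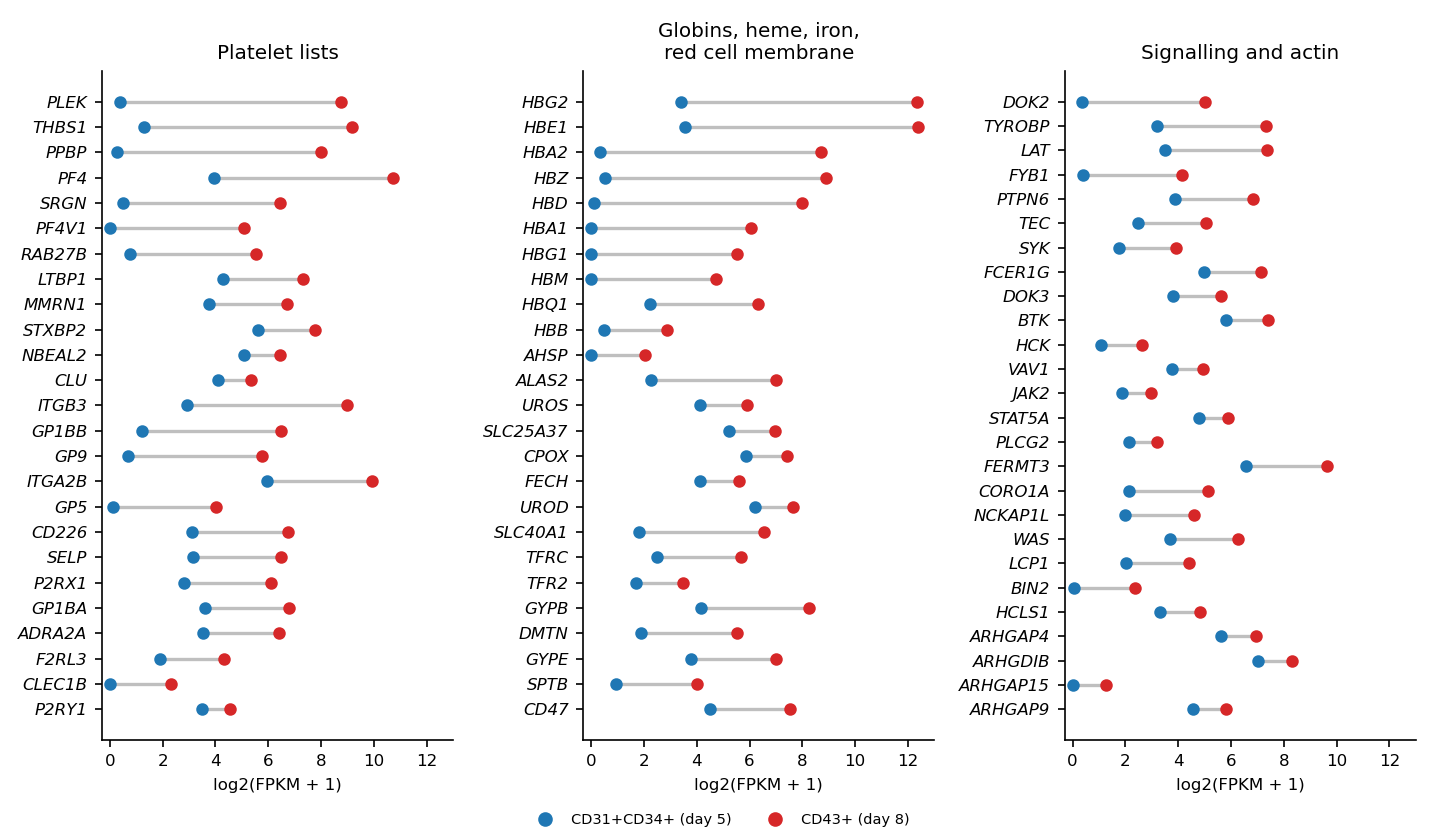
Level as log2(FPKM + 1) (x axis) in CD31+CD34+ cells (blue, day 5) and CD43+ cells (red, day 8), 1 library each, for the genes that rose in the platelet lists (left), in the globin, heme and iron lists with 5 of the largest rises of the red cell membrane list (middle), and in the signalling and actin lists (right), leaving out a few genes not reported here. PLEK, PPBP and several globins start near 0, while ITGA2B, FERMT3 and BTK start from a clear level in CD31+CD34+ cells.

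Transcription factors of blood cells moved both ways. Of 36 genes 18 rose and 7 fell, with a median difference of 1.04. GATA1 rose 14.2-fold (12.7 to 15.9), NFE2, a factor of megakaryocytes and red cells, from 12.6 to 235 FPKM (18.6-fold, 16.9 to 20.6), and IKZF1, Ikaros, from 2.31 to 18.8 FPKM. ZBTB16, a zinc finger repressor, had the largest rise of the list, from 1.99 to 87.6 FPKM (43.9-fold, 33.8 to 57.7). Factors that define the hemogenic stage were high on both sides: FLI1 at 316 and 367 FPKM, GATA2 at 254 and 211 FPKM and LMO2 at 107 and 188 FPKM. RUNX1, the factor on which EHT depends, rose from 60.1 to 137 FPKM, and TAL1 from 71.2 to 184 FPKM. GFI1 and GFI1B, paired repressors of the endothelial program, moved apart, with GFI1 falling from 27.9 to 3.63 FPKM (7.68-fold, 6.63 to 8.97) and GFI1B rising from 35.9 to 188 FPKM. ERG, an ETS factor of endothelium and stem cells, fell from 75.1 to 5.68 FPKM (13.2-fold, 12.1 to 14.4), HHEX from 87.9 to 31.5 FPKM and CEBPB from 31.8 to 12.2 FPKM. MECOM, a factor of stem cells, fell from 7.64 to 1.5 FPKM, and HLF and HOXA9 did not reach 1 FPKM.

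Cytokine receptors as a group did not share the rise. Of 30 genes 4 rose and 9 fell, with a median difference of -0.20. CSF1R, the receptor of macrophage colony-stimulating factor, rose from 0.759 to 8.80 FPKM. EPOR, the erythropoietin receptor (35.2 and 30.6 FPKM), and KIT, the receptor of stem cell factor (7.79 and 6.65 FPKM), changed by less than 1. The falls included LIFR, the receptor of leukemia inhibitory factor, from 37.5 to 1.38 FPKM (27.1-fold, 21.3 to 35.3), IL4R from 16.6 to 2.88 FPKM and TNFRSF1B from 32.2 to 5.39 FPKM. FLT3, IL7R and IL3RA, receptors of blood progenitors, were below 1 FPKM in both libraries.

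Inside the membrane, the signalling proteins that sit next to immune-type receptors rose more often. Of 31 genes 15 rose and 4 fell, with a median difference of 0.96. TYROBP, an adaptor that carries an activating motif, went from 8.13 to 161 FPKM (19.8-fold, 14.9 to 27.0), and LAT, the adaptor of T cells and platelets, from 10.4 to 165 FPKM (16.0-fold, 14 to 18.2). DOK2, a docking protein, went from 0.270 to 31.4 FPKM with about 3 fragments behind the lower level (117-fold, 41.5 to 596). BTK, a cytoplasmic kinase, was already at 55.2 FPKM in CD31+CD34+ cells and rose to 166 FPKM. GRAP2, another adaptor, fell from 44.5 to 9.86 FPKM, and SH2B3 and PLCG1 fell too.

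The actin regulators of blood cells gave 11 rises and no fall among 24 genes, with a median difference of 0.88. FERMT3, kindlin-3, which activates integrins in blood cells, went from 93.8 to 789.9 FPKM (8.42-fold, 7.99 to 8.87). CORO1A, coronin 1A, went from 3.36 to 34.0 FPKM (10.1-fold, 7.58 to 14.1). WAS, the gene of the Wiskott-Aldrich syndrome protein, rose from 12 to 76.3 FPKM, and NCKAP1L, a part of the WAVE complex of blood cells, from 2.99 to 23.4 FPKM. RAC2, the Rac GTPase of blood cells, was at 38.1 and 73.4 FPKM, just under the threshold. ACTB, beta actin, rose from 1032 to 3021 FPKM, so it was no stable reference here, whereas GAPDH was at 2727 and 3163 FPKM.

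Most granule genes of white cells were nearly absent. Of 25 genes of myeloid and mast cell granules 19 stayed below 1 FPKM in both libraries, 3 rose and none fell. HDC, the enzyme that makes histamine, rose from 0.182 to 18.3 FPKM (101-fold, 51.8 to 238), and CD68 from 5.89 to 21.6 FPKM. The other gene that rose, PRG2, went from no fragment to 8.86 FPKM, at least 75.7-fold when set against 3 fragments. Among 30 chemokines and inflammatory cytokines 23 were below 1 FPKM, 4 rose and 1 fell. The rises were in CXCL1, CXCL2 and CXCL3, neighbouring chemokine genes on chromosome 4, and in IL1B, which went from 0 to 4.11 FPKM. CXCL2 went from 1.16 to 60.3 FPKM (51.9-fold, 34.9 to 79.0) and CXCL3 from 1.29 to 66.7 FPKM (51.6-fold, 34.9 to 81.7), and reads of these similar genes may be shared.

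Genes that respond to interferon were a further group with a high median. The list of MHC class I and interferon response held 31 genes, of which 18 rose and 1 fell, with a median difference of 1.82. Interferon-stimulated genes share the interferon-stimulated response element (ISRE), so the 250 bases before the start of the 3 rising members with the largest rise and a single RefSeq start are shown. Capitals mark the core of this element, which is a pair of GAAA blocks with 2 bases of any kind between them, on either strand, and a match on the other strand appears as the reverse complement. This motif was chosen after the rise of these genes had been seen.

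IFI6 (chr1:27672193-27672442, minus strand): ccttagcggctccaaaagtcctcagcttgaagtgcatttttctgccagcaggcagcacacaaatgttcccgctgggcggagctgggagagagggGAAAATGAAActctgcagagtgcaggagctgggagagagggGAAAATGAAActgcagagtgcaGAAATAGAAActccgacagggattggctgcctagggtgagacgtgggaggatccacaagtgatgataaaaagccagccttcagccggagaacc
IFIT1 (chr10:89392373-89392622, plus strand): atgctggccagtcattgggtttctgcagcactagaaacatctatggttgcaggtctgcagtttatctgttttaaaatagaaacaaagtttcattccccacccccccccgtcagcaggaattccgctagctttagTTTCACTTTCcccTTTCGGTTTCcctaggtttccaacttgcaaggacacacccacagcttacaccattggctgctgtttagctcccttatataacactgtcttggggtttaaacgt
OAS1 (chr12:112906712-112906961, plus strand): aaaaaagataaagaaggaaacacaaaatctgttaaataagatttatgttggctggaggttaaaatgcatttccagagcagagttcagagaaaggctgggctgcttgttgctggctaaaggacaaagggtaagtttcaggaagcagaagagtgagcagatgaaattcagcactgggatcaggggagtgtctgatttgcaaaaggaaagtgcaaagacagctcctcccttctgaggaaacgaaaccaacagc

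IFI6 held 3 matches and IFIT1 2, all within 156 bases of the start, and the OAS1 window held none with this spacing. Of the 18 genes of the list that rose 14 had a promoter entry and 10 of these (71.4%) held the motif, against 3.71% of all 27305 genes. Among the 13 members that did not rise 10 had an entry and 6 (60.0%) held it, so members that did not rise carried it as well.

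IFI6, a small mitochondrial protein, had the largest rise of the list in log2(FPKM + 1). From BC1 through APLNR+ and CD31+CD34+ to CD43+ it was at 5.07, 4.60, 8.61 and 1675 FPKM, so that the last library stood far above the others, and the difference at the last step was 195-fold (162 to 237). MX1, an antiviral GTPase, was at 1.35, 0.302, 0.636 and 177 FPKM in the same order (278-fold, 152 to 634). ISG15, a ubiquitin-like modifier, was at 13.2, 10.6, 35.2 and 1049 FPKM (29.8-fold, 26.8 to 33.4). IFIT1, which binds foreign RNA, went from 0.902 to 128 FPKM (142-fold, 111 to 185), and OAS1, which makes an antiviral second messenger, from 0.699 to 62.8 FPKM (89.8-fold, 50.2 to 182), though OAS1 had been at 17.4 FPKM in APLNR+ cells. The transcription factors of the pathway rose too, with STAT2 from 22.6 to 72.8 FPKM, IRF7 from 7.75 to 95.1 FPKM and IRF9 from 14.9 to 59.2 FPKM. Antigen presentation was less uniform. B2M, the light chain of MHC class I, rose from 308 to 799 FPKM, and the peptide transporter genes TAP1 and TAP2 rose to 9.21 and 12.1 FPKM. Of the heavy chains HLA-B was at 96.5 and 179 FPKM and HLA-C at 69.9 and 119 FPKM, and HLA-E fell from 160 to 62.2 FPKM (2.57-fold, 2.47 to 2.68). The heavy chain genes are alike in sequence and polymorphic, which makes their levels uncertain. BST2, tetherin, was at 241 and 129 FPKM and IFITM3 at 480 and 958 FPKM, just under the threshold.

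The endothelial side of the step was a broad fall. Of 26 genes of endothelial junctions 14 fell and 2 rose, with a median difference of -1.07. CDH5, VE-cadherin, which holds endothelial cells together, fell from 224 to 9.38 FPKM (23.9-fold, 21.3 to 26.9). The fall also took in CGNL1, a junction scaffold (35.9 to 2.08 FPKM), CDH2, N-cadherin (10.003 to 0.682 FPKM), and GJA5, connexin 40 (51.2 to 9.93 FPKM). The catenin genes CTNNB1 (137 and 74.9 FPKM) and CTNNA1 (123 and 74.9 FPKM) and ESAM (98.0 and 76.5 FPKM) changed by less than 1. GJA4, connexin 37, rose from 49.4 to 151 FPKM (3.07-fold, 2.87 to 3.27). The junction genes thus did not move as a block.

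Of 14 genes of the VEGF and angiopoietin systems, by which endothelium grows and is kept stable, 9 fell and 2 rose, with a median difference of -2.09. KDR, the main VEGF receptor, fell from 569 to 38 FPKM (15.0-fold, 14.5 to 15.4), FLT4, the receptor of VEGFC, from 193 to 6.36 FPKM (30.4-fold, 27.9 to 33.2), and the coreceptors NRP1 and NRP2 from 43.8 to 2.62 and from 256 to 22.9 FPKM. TEK, the angiopoietin receptor, fell from 82.5 to 11.7 FPKM. The 2 rises were both ligands. ANGPT1, the ligand of TEK, went from 0.491 to 39.5 FPKM (80.4-fold, 49.2 to 152), and VEGFA from 23.3 to 94.9 FPKM (4.07-fold, 3.67 to 4.53).

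Genes that endothelium uses to set vascular tone and to keep blood fluid fell in 15 of 24 cases and rose in 3, with a median difference of -1.83. RAMP2, the partner of the adrenomedullin receptor, fell from 53.5 to 0.653 FPKM (81.9-fold, 32.6 to 311), NOS3, endothelial nitric oxide synthase, from 93.7 to 2.87 FPKM (32.7-fold, 27.6 to 39.0), and the coagulation inhibitor genes TFPI2 and TFPI from 139.5 to 5.49 FPKM and from 304 to 25.2 FPKM. The rises were in RAMP1, ADM and GUCY1B1, none above 8.25 FPKM.

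The BMP and TGF-beta pathway showed falls at each level from ligand to target. Of 38 genes 18 fell and 1 rose, with a median difference of -0.89. The ligand genes BMP4 and BMP6 fell, from 12 to 1.33 FPKM and from 7.30 to 0.278 FPKM. In APLNR+ cells BMP4 had been at 305 FPKM and BMP6 at 0.148 FPKM. BMPER, a secreted BMP modulator, fell from 136 to 4.61 FPKM (29.5-fold, 26.2 to 33.3). Among receptors, ACVRL1, the endothelial BMP9 receptor ALK1, fell from 81.2 to 1.87 FPKM (43.4-fold, 30.2 to 66.2), and its coreceptor gene ENG from 74.0 to 10.6 FPKM. The inhibitory SMAD6 fell from 486 to 24.2 FPKM and SMAD7 from 32.2 to 1.27 FPKM, while SMAD1 (5.42 and 7.89 FPKM), SMAD2 (37.1 and 31.6 FPKM) and SMAD4 (44.1 and 30.4 FPKM) changed by less than 1 and SMAD3 was just under the threshold (20.6 and 9.90 FPKM). Of the other signal-transducing SMAD genes, SMAD5 fell from 26.8 to 10.4 FPKM (2.58-fold, 2.06 to 3.24) and SMAD9 from 2.48 to 0.183 FPKM (13.6-fold, 8.78 to 22.9). The direct targets ID1 and ID3, inhibitors of DNA binding, had the largest falls of the list in log2(FPKM + 1), ID1 from 636 to 18.7 FPKM (34.1-fold, 30.6 to 38.2) and ID3 from 159 to 3.30 FPKM (48.1-fold, 37.9 to 62.0). ID2 fell from 321 to 67.3 FPKM. TGFB1, which platelets store, was at 357 and 585 FPKM.

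In the Notch pathway 13 of 24 genes fell and 1 rose, with a median difference of -1.05. Notch signalling sets arterial identity in endothelium and takes part in the making of hemogenic cells. The receptor gene NOTCH1 fell from 128 to 24.4 FPKM (5.25-fold, 5.09 to 5.42) and NOTCH3 from 41.0 to 8.11 FPKM, the ligand gene DLL4 from 18.0 to 1.77 FPKM (10.2-fold, 8.41 to 12.3), and LFNG, the fringe enzyme that tunes the receptors, from 31.8 to 1.86 FPKM (17.1-fold, 13.5 to 22.2). The targets did not follow as 1 group: HEY1 and HEY2 fell, HES1 was at 25.6 and 32.2 FPKM, and HES4 rose from 45.0 to 153 FPKM (3.39-fold, 3.10 to 3.71). The nuclear effector RBPJ was at 27.0 and 28.1 FPKM.

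Transcription factors of vessels and of the heart and body wall fell in 20 of 33 cases, with 1 rise (KLF4) and a median difference of -1.38. SOX7 fell 92.1-fold (71.0 to 121), SOX17 from 11.8 to 0.157 FPKM and SOX18 from 140 to 14.1 FPKM, so that all 3 SOXF genes fell. A locus named AC105001.2 that overlaps SOX7 on the same strand of chromosome 8 fell along with it, and reads may be split between them. GATA4, a factor of heart mesoderm, fell from 41.6 to 0.935 FPKM (44.4-fold, 28.6 to 74.9) after 122 FPKM in APLNR+ cells. MSX1 was at 22.1 and 25.3 FPKM and FOXO1 at 11.6 and 5.44 FPKM. In the HOX clusters the 8 genes with at least 1 FPKM all belonged to HOXB, and 4 of them fell and none rose among the 21 genes listed. HOXB3 fell from 169.8 to 54.3 FPKM (3.13-fold, 2.96 to 3.30) and HOXB6 from 34.6 to 11.7 FPKM, whereas HOXB9 was at 14.9 and 23.8 FPKM. No HOXA gene of the list reached 1 FPKM in either library.

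**Figure D3:**
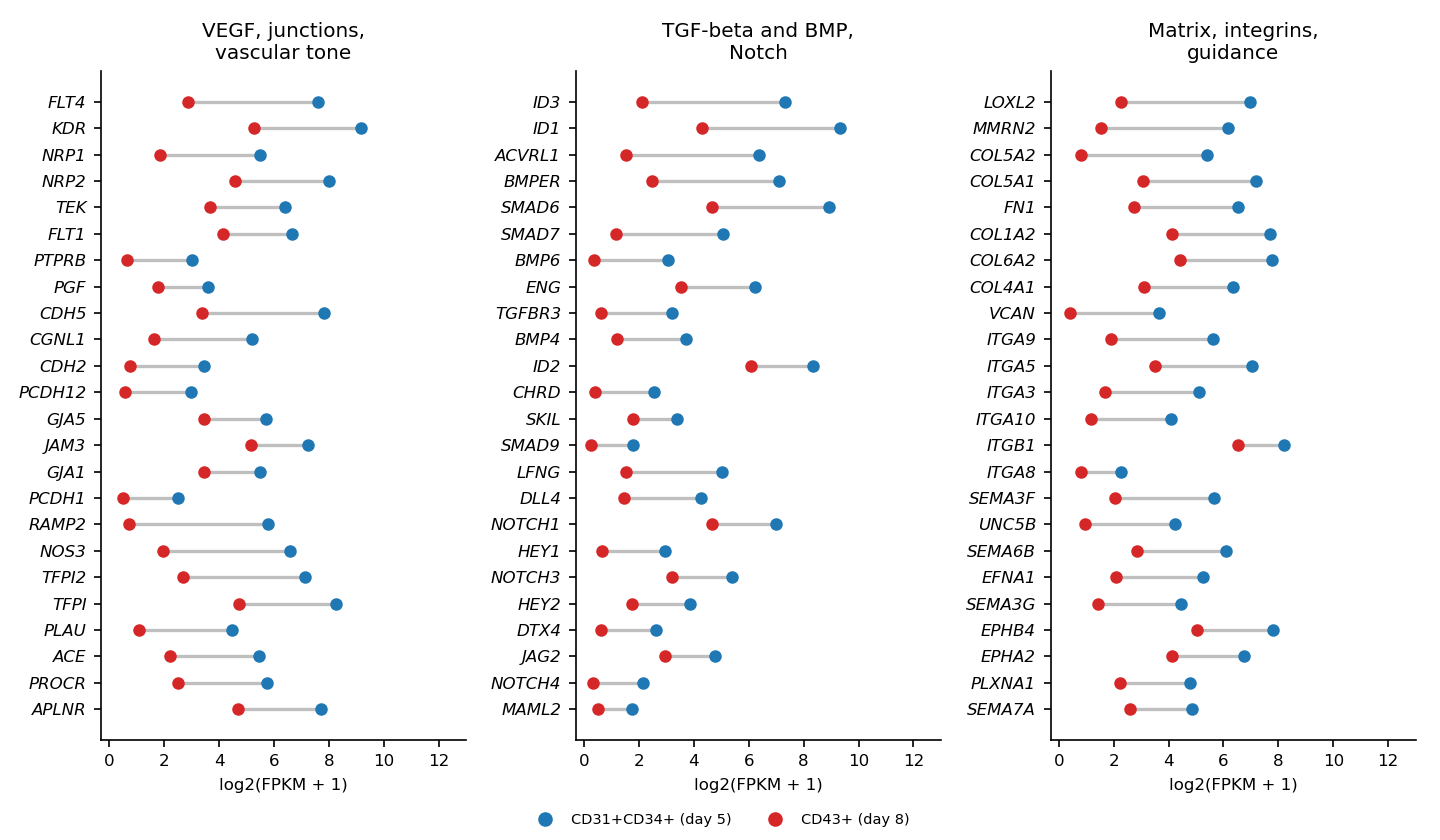
Level as log2(FPKM + 1) (x axis) in CD31+CD34+ cells (blue, day 5) and CD43+ cells (red, day 8), 1 library each, for the genes with the largest falls in the VEGF, junction and vascular tone lists (left), the TGF-beta and BMP and Notch lists (middle), and the matrix, integrin and guidance lists (right). ID1, KDR and SMAD6 fall from the highest levels, and KDR, ID2 and ITGB1 keep a clear level in CD43+ cells.

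Of 40 genes of basement membrane and matrix 23 fell and 3 rose, with a median difference of -1.16. Among the collagens that fell were COL5A2 from 41.0 to 0.746 FPKM (54.9-fold, 44.8 to 67.7), COL5A1 from 143 to 7.38 FPKM and COL4A1 from 80.9 to 7.57 FPKM. LOXL2, a collagen crosslinker, fell from 123 to 3.81 FPKM (32.3-fold, 23.4 to 45.5), and MMRN2, a glycoprotein of endothelial matrix, from 71.5 to 1.91 FPKM (37.5-fold, 25.5 to 56.0). LOX, a relative of LOXL2, rose from 1.12 to 56.8 FPKM (50.5-fold, 40.5 to 63.5), and TIMP3, an inhibitor of matrix proteases, from 73.9 to 726 FPKM (9.82-fold, 9.59 to 10.1). The collagen genes COL3A1 (8.94 and 4.87 FPKM) and COL4A5 (23.1 and 15.6 FPKM) changed by less than 1, and the laminin genes LAMB2 and LAMC1, with COL18A1 and TIMP1, also changed by less than 1. Matrix genes therefore held large changes both ways, with falls in the majority.

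Integrins, the receptors of matrix, moved both ways. Of 25 genes 4 rose and 9 fell. ITGB3 and ITGA2B rose as given above, with ITGA4 and ITGA6, and the fibronectin receptor chain ITGA5 fell from 132 to 10.3 FPKM (12.8-fold, 11.7 to 14), ITGA9 from 47.9 to 2.72 FPKM (17.6-fold, 14.6 to 21.4) and ITGA3 from 33.3 to 2.25 FPKM. ITGB1, the shared beta chain of many of them, fell from 293 to 90.8 FPKM. The leukocyte chain gene ITGB2 was low, at 4.60 and 5.85 FPKM, and ITGAM and ITGAX were below 1 FPKM.

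Guidance cues and their receptors, which steer vessels as well as axons, had no rise and 19 falls among 30 genes, with a median difference of -1.58. SEMA3F, a secreted semaphorin, fell from 49.7 to 3.16 FPKM (15.7-fold, 12.8 to 19.5), UNC5B, a netrin receptor, from 17.7 to 0.925 FPKM (19.2-fold, 16.0 to 23.0), and EPHB4, the venous ephrin receptor, from 222 to 32.0 FPKM. SEMA4D, a semaphorin of blood cells and platelets, was at 7.64 and 15.6 FPKM and EFNB1 at 29.1 and 45.6 FPKM.

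Targets of YAP and SRF, which respond to tension on the cytoskeleton, fell in 13 of 26 cases and rose in 3, with a median difference of -0.89. TAGLN, transgelin, fell from 74.7 to 3.52 FPKM (21.2-fold, 16.4 to 28.2), and AMOTL2, which binds YAP, from 17.9 to 1.47 FPKM. FLNA, filamin A, rose from 90.5 to 387 FPKM, VCL, vinculin, from 49.2 to 158 FPKM and CAVIN2, a caveolar coat protein that platelets also carry, from 7.51 to 106 FPKM (14.2-fold, 12.9 to 15.5), while CAV1 and CAV2 fell to 0.316 and 0.691 FPKM.

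Among cell cycle genes the groups of S phase and of mitosis moved in different directions by small amounts. Of 28 genes of DNA replication and the G1/S transition 23 were higher in CD43+ cells, but only 2 rose by at least 1 and 1 fell, with a median difference of 0.48. The D-type cyclins, which drive entry into the cycle, moved in opposite directions. CCND3 rose from 129.5 to 445.5 FPKM (3.44-fold, 3.33 to 3.56), and CCND1 fell from 93.0 to 14.2 FPKM (6.55-fold, 6.04 to 7.12). The replicative helicase genes MCM4 (122 and 238 FPKM) and MCM7 (118 and 182 FPKM) and PCNA (113 and 177 FPKM) were higher by less than 1. Of 26 genes of mitosis 25 were lower in CD43+ cells, 9 fell by at least 1 and none rose, with a median of -0.89. Counts of genes higher or lower by any amount, here and in other lists, have no share of all genes beside them. PTTG1, securin, fell from 153 to 47.2 FPKM (3.23-fold, 2.94 to 3.56), CENPA, the centromeric histone, from 22.5 to 6.83 FPKM (3.29-fold, 2.76 to 3.94), and MKI67, the gene of Ki-67, from 40.2 to 15.0 FPKM. Of 15 inhibitors of the cycle 2 rose, CDKN2D from 10.8 to 36.3 FPKM and CDKN1C from 36.3 to 95.2 FPKM, and CDKN1A fell from 228 to 111 FPKM.

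Regulators of apoptosis moved little as a list, with 3 rises and 3 falls among 16 genes and a median difference of -0.01. The proapoptotic genes BAD and BOK fell from 39.3 to 9.62 FPKM (4.09-fold, 3.07 to 5.43) and from 28.3 to 7.71 FPKM, and BCL2L11, which gives BIM, rose from 7.91 to 25.9 FPKM (3.27-fold, 2.81 to 3.81). BCL2L1, which gives the survival protein BCL-XL of platelets and red cells, was at 109 and 214 FPKM. In the autophagy list 3 of 21 genes fell and 1 rose. PINK1, a sensor of damaged mitochondria, fell from 17.8 to 2.99 FPKM (5.95-fold, 5.01 to 7.10), and BNIP3, a mitophagy receptor, rose from 36.0 to 86.2 FPKM.

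In metabolism genes of the synthesis of sterols and fatty acids were mostly higher in CD43+ cells. Of 26 genes 10 rose and none fell, and 21 were higher in CD43+ cells, with a median difference of 0.75. FADS2, a fatty acid desaturase, was at 289, 298, 328 and 1039.6 FPKM from BC1 through APLNR+ and CD31+CD34+ to CD43+ cells (3.17-fold at the last step, 3.06 to 3.28). LSS, lanosterol synthase, went from 54.5 to 163 FPKM (2.998-fold, 2.88 to 3.12) and FASN, fatty acid synthase, from 116 to 306 FPKM. For 21 of the 26 genes the CD31+CD34+ level was lower than in APLNR+ cells, where FASN was at 379.6 FPKM and LSS at 107 FPKM.

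Of 23 genes of glycolysis 5 rose and 1 fell, with a median of 0.45. HK2, hexokinase 2, rose from 7.62 to 22.7 FPKM (2.99-fold, 2.77 to 3.22), LDHA, lactate dehydrogenase A, from 204.5 to 496 FPKM (2.43-fold, 2.35 to 2.51) and the glucose transporter gene SLC2A1 from 54.6 to 128 FPKM. SLC16A1, a lactate transporter, fell from 355 to 175 FPKM. Nuclear genes of oxidative phosphorylation hardly moved, with 1 rise among 93 genes and a median of 0.14. All 13 mitochondrially encoded genes were higher in CD43+ cells, 2 of them by at least 1, and they took 5.51% of the total FPKM in CD31+CD34+ and 7.58% in CD43+.

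**Figure D4:**
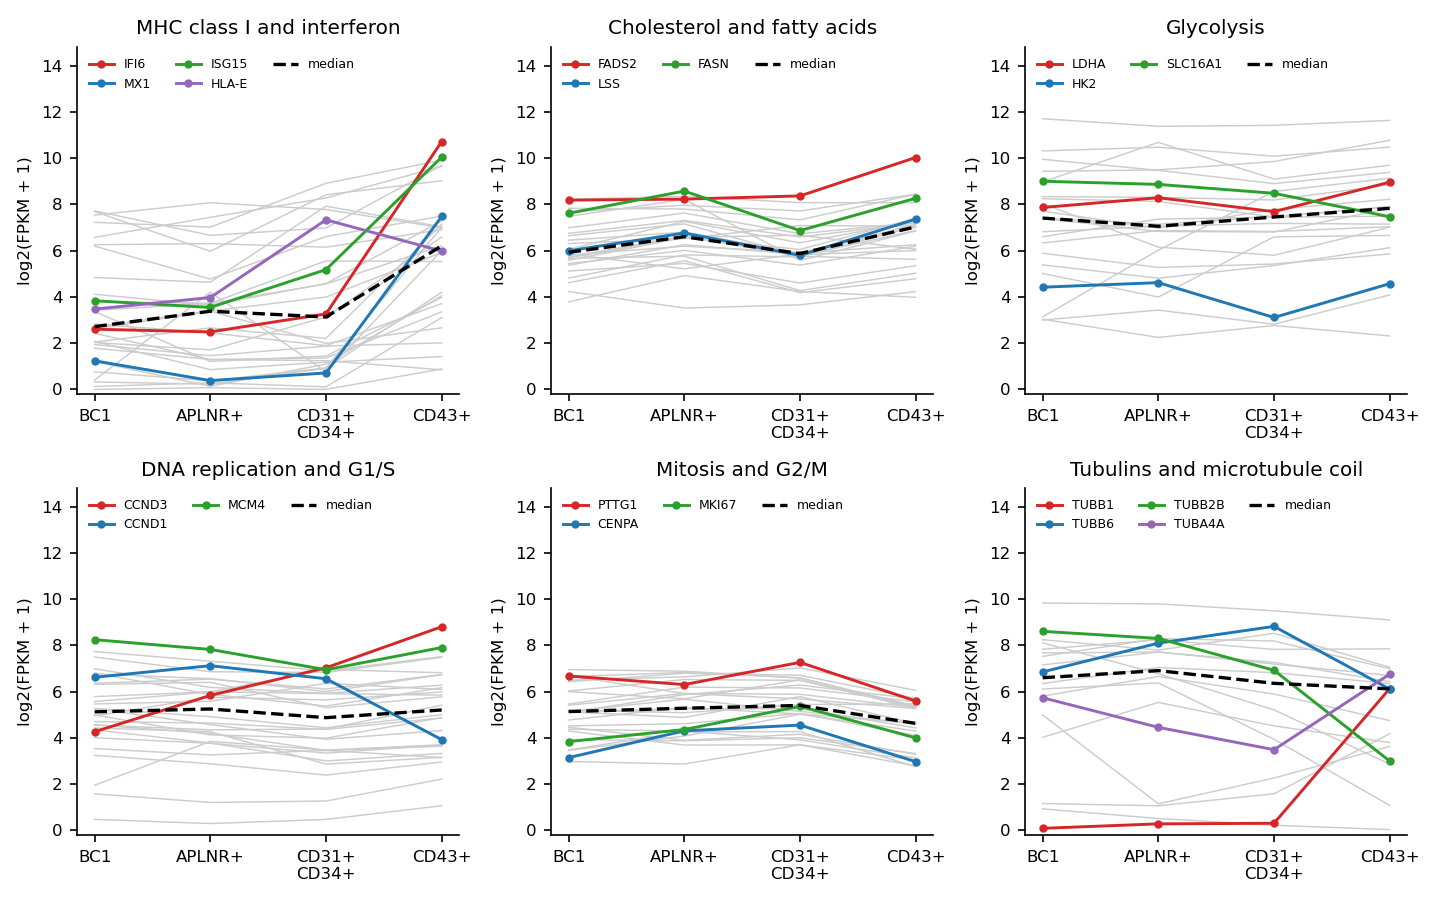
Level as log2(FPKM + 1) (y axis) in the libraries of BC1, APLNR+, CD31+CD34+ and CD43+ cells (x axis, 1 library each) for 6 gene lists. Grey lines are single genes, coloured lines the named genes and the dashed black line the median of the list. IFI6, MX1 and ISG15 are highest in CD43+, CCND3 and CCND1 move apart at the last step, and TUBB1 appears as TUBB6 and TUBB2B fall.

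Ribosomal protein genes gave a narrow reference. Of 84 genes 1 rose and 1 fell, both of them paralogs of core proteins, with a median difference of 0.25. RPL22L1 rose from 40.7 to 158 FPKM (3.87-fold, 3.37 to 4.47), while RPL22 was at 488 and 492 FPKM. RPL39L fell from 33.0 to 2.84 FPKM (11.6-fold, 7.85 to 17.4), while RPL39 was at 1378 and 2294 FPKM. The fetal RNA-binding list had 1 fall among 10 genes: HMGA2 fell from 32.3 to 8.79 FPKM (3.68-fold, 3.23 to 4.20), and HMGA1, LIN28A and LIN28B differed by less than 1.

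The 10 genes with the largest rises over the whole table were HBG2, HBE1, PLEK, HBA2, HBZ, THBS1, HBD, PPBP, DLK1 and IFI6. DLK1, a membrane ligand related to Notch ligands, was the only one of them outside the lists, and it went from 1.38 to 415 FPKM (301-fold, 215 to 434). The 10 with the largest falls were FCN3, SOST, RGS5, CPM, HAPLN1, AC105001.2, SOX7, SVIL, ID3 and CRIP2. FCN3, a lectin of the complement system, went from 192 to 0.558 FPKM (343-fold, 177 to 735), SOST, the Wnt inhibitor sclerostin, from 154 to 0.505 FPKM (305-fold, 201 to 486), and RGS5, a regulator of G protein signalling in vessels, from 393 to 3.58 FPKM (110-fold, 82.7 to 150). HAPLN1, which links hyaluronan to proteoglycans, went from 437 to 6.76 FPKM (64.6-fold, 51.7 to 81.6). CPM, a membrane carboxypeptidase, had about 2 fragments left in CD43+ cells, so its fold of 505 has an interval from 143 to 4267.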

How the data were processed

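Total RNA of 4 populations was sequenced with an Illumina TruSeq RNA kit, 1 library each. The authors deposited gene-level FPKM values, and the submitters' processing notes name BWA, Bowtie, RSEM and hg19 without saying which step each served. Gene positions in the table were those of GRCh38 (of identifiers with the same version as in GENCODE 29, 99.8% matched in both ends), so positions here are on GRCh38, counted from 1. The table held 58365 rows for 58274 identifiers, and rows of 1 identifier were summed.

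Differences were taken as log2(FPKM + 1), a scale that understates the change of low genes, over genes with at least 1 FPKM in either library. Fragments were approximated from the steps between low values and from the median transcript length of each gene. At these depths 84.4% (CD31+CD34+) and 85.0% (CD43+) of the low values used came within 0.1 of a whole number. Folds are FPKM ratios with exact Clopper-Pearson 95% intervals, and a value without a fragment was set to 3 fragments and its fold given as a lower bound. The length used is too short for genes that use a long transcript, which widens the interval. No model of counts was used.

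The gene lists and the rule for named genes were chosen with earlier results of these data known. The rule took the 10 largest rises and falls with at least 10 FPKM, the markers, and in each list up to 4 rises, 4 falls and the 3 most abundant members that changed by less than 1. All other genes were named after their values were seen. Y-linked genes and XIST were left out. Some list members count in the totals but are not reported here by name. Promoters were RefSeq entries on GRCh38.p14, matched by symbol. Calls and intervals were run on simulated counts drawn with the same lengths and depths that the intervals use. That run cannot show errors in these lengths and depths, or the spread between cultures. Scripts used Python 3.11.15 with numpy 2.4.6, pandas 2.3.3, scipy 1.17.1 and matplotlib 3.10.9. Alternatives were a pseudocount of 0.1, no filter or a filter of 5 FPKM, a threshold of 2, 2 rescalings, the largest row of an identifier, protein-coding genes alone and the mean of a list.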

Additional observations from a re-analysis of the deposited data

How the results depend on the processing

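No paired analysis was possible because each population had 1 library, and no replicate could be left out. Among the genes taken by the rule from the largest changes and from the lists, none that rose or fell changed sign. The alternatives run on them were a pseudocount of 0.1, the rescalings and the largest row of an identifier. A pseudocount cannot reverse a difference, and the rescalings shift it by far less than 1, so neither could have changed a sign. With a threshold of 2, 391 genes rose and 741 fell, and with a filter of 5 FPKM 1546 fell. With that filter, which removes low members, list medians moved to 6.95 for globins, 4.83 for chemokines, 3.16 for platelet receptors, 2.16 for platelet granules, 2.20 for the red cell membrane, 1.71 for myeloid granules and 1.53 for eicosanoid synthesis, and to -0.80 for integrins, -1.14 for HOX clusters, -2.16 for SOX and vascular factors, -2.30 for matrix, -2.40 for guidance and -2.81 for vascular tone. That filter keeps members that are high in either library and drops those low in both, which can differ little. Larger medians with it therefore do not bear on the lists. For chemokines and myeloid granules few members were left, and the medians are the differences of CXCL2 and CD68. With a pseudocount of 0.1 the list medians moved to 8.95 for globins, -1.72 for matrix, -1.83 for Notch, -2.41 for vascular tone and -2.58 for guidance. As a mean in place of a median, the values were -1.40 for TGF-beta and BMP, -1.47 for VEGF and angiopoietins and 2.40 for platelet granules. With the same total in each library the median of globins was 6.64. For the marker lists, the medians moved to 2.10 (macrophage and neutrophil) and -1.78 (smooth muscle and stroma) with the filter of 5 FPKM, and their means were 0.623 and -1.45. Of the other values, 282 medians and 13 counts of genes moved by less than 0.5 or by less than 1.5 times, and 47 of 1132 differences of single genes moved by 0.5 or more. The median log2 ratio of genes with at least 5 FPKM in both libraries was -0.045 and the log2 ratio of the totals was 0.12. Fragment counts near 3 give no firm fold, and the spread between cultures and sorts was not measured, so small differences such as those of the cell cycle and metabolic lists have no replicate check.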
